A study of Rattus norvegicus with 4 samples.

Results

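Genes whose m6A peaks kept exactly the same set of lengths after FTO overexpression were examined in neonatal rat cardiac fibroblasts (CFs). The genes were selected on the measured peak lengths. A gene was taken when it had 3 to 9 peaks in the Vector list and when its sorted peak lengths were identical in the FTO list. Of the 2605 genes with 3 to 9 Vector peaks, 284 met this rule (10.9%). In all, 8534 genes with a gene ID had a peak in either list. The cells were primary CFs isolated from hearts of Sprague-Dawley pups at most 3 days old. The control cells, labelled WT, received the empty plasmid (Vector), and the FTO cells, labelled FTO overexpression, received the plasmid carrying FTO, with collection 48 h after transfection. Each group had 1 m6A-IP library and 1 input library, and the authors made 1 peak list per group, so that nothing below could be checked against a replicate. Genes are not replicates, and no p-values are given. The promoter that drove FTO was not stated in the sources used here.

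N6-methyladenosine (m6A) is a common internal mark of mRNA, placed by a complex around METTL3 and METTL14 and removed by the demethylases FTO and ALKBH5. Reader proteins such as the YTH family and IGF2BP proteins bind the mark and affect splicing, stability and translation of the transcript. In m6A-seq, RNA fragments are pulled down with an antibody against the mark, and a peak is a stretch where they exceed the input RNA. A peak therefore needs both the transcript and the mark. Peak lengths in bp were compared here, while the positions and heights of peaks were not analysed and the sequencing depth is unknown. An equal length does not show an equal amount of m6A within the peak. Related genes can share lengths. Smarca2, with 19 Vector peaks, and Smarca4, with 15, both had peaks of 174, 131, 164, 228, 219 and 106 bp. Whether the lengths follow the bounds of exons was not tested. If they did, an equal length would only show that the same exon was listed.

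The labelled cell type was compared with marker genes. Of 13 fibroblast markers, 7 had Vector peaks and 7 had FTO peaks, with 16 and 13 peaks in all. Pdgfra, a fibroblast receptor, had 7 Vector peaks and 6 FTO peaks, while Col1a1, Col1a2, Col3a1, Vim and Dcn were at 0 in both lists. Of 8 cardiomyocyte markers, 6 had Vector peaks and 4 had FTO peaks, with 23 and 24 peaks in all, and Myh6 had 7 in each list. Endothelial markers held 7 Vector peaks and 6 FTO peaks, all the Vector peaks on Flt1. The smooth muscle and pericyte markers had 22 peaks in each list, mostly on Myh11 with 17 and 15, and the macrophage markers had 14 and 9, led by Ptprc with 10 and 7. Since an unmethylated transcript gives no peak, these numbers are not levels of expression. Only 2 fibroblast, 3 cardiomyocyte, 1 endothelial, 1 smooth muscle and pericyte and 0 macrophage markers had 3 to 9 Vector peaks. None of the markers belonged to the 284 genes, beside 10.9% of all genes in this range. With so few markers nothing is read from this count. The part of other cell types in the peak sets was not tested. In bulk RNA, fewer cells of a type and less RNA per cell cannot be told apart.

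To see where the 284 genes stood among the genes that could have met the rule, all 2605 were sorted by how their lengths changed. The identical sets made up 10.9% of them (95% Wilson interval 9.76% to 12.2%, counting error only), and they carried 1170 peaks in each list. The most frequent outcome, in 849 genes, was an FTO set that held some of the Vector lengths and no other. The reverse, with every Vector length kept and further FTO peaks added, was found in 171 genes. A further 384 genes had as many peaks in both lists but with other lengths, 784 differed in number and in lengths, and 133 had no FTO peak. The number and lengths of peaks of the 284 genes are fixed by the rule and are given as a description.

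Identical sets were most frequent among genes with few peaks. With 3 Vector peaks, 132 of 958 genes were identical (13.8%), with 4 peaks 72 of 598, with 5 peaks 35 of 387 (9.04%) and with 6 peaks 24 of 276 (8.70%). Among genes with 7, 8 and 9 peaks the identical sets numbered 7 of 205 (3.41%), 8 of 113 (7.08%) and 6 of 68 (8.82%), so the share did not fall steadily. Just below the range, 382 of 1713 genes with 2 peaks (22.3%) and 1094 of 3211 genes with 1 peak (34.1%) had identical lengths. Just above it, 2 of 194 genes with 10 or more peaks did (1.03%). These were Atf7ip, a partner of the histone methyltransferase SETDB1, with 10 peaks, and Golim4, a Golgi membrane protein, with 13. The longest peak of Atf7ip measured 1693 bp and the longest of Golim4 measured 385 bp in both lists.

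The order of the peaks was then compared, because the rule used sorted lengths and not their order. Peak names carry a running number, and following these numbers the next listed gene was on the same chromosome in 98.4% of steps in each list. Of these steps, 95.2% in each list led to a gene with a higher start position in the RefSeq table, so the numbers mostly follow the genome from gene to gene. Along the peak number, 283 of the 284 genes had their lengths in the same order in both lists (99.6%, 95% Wilson interval 98.0% to 99.9%). The same 283 genes also had every length annotated to the same Ensembl transcript in both lists. Order and transcript thus went with length. They are no separate check of it, because a peak listed again brings its place and transcript along. This was not particular to the identical sets. Of 1008 other genes with 3 to 9 Vector peaks and at least 3 lengths in common that occurred once in each list, 1005 had the common lengths in the same order (99.7%) and 1007 had them on the same transcripts (99.9%).

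Rps6kc1, a ribosomal S6 kinase-like gene with 8 peaks, was the exception. Its Vector peaks ran 818, 1536, 133, 116, 360, 121, 36 and 218 bp. In the FTO list the peak of 360 bp came before that of 116 bp, and the other lengths kept their places. The peak of 116 bp was annotated to ENSRNOT00000087305 in the Vector list and to ENSRNOT00000067017 in the FTO list. By order and transcript the 116 bp peaks were not shown to be the same peak, and without this gene 283 identical sets remained.

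Gaps in the numbering also differed from those of other genes. What the numbers are that lie between the peaks of a gene and are not in its list is not stated in the sources used here. Many numbers are unlisted, as the 21249 Vector peaks carry numbers up to 59557 and the 17796 FTO peaks up to 52060. More numbers were thus unlisted for Vector over the lists as a whole. The 284 genes enclosed 385 such Vector numbers and 307 such FTO numbers, with a median of 1 and 0 per gene. In the Vector list their peaks had consecutive numbers in 133 genes (46.8%, 95% Wilson interval 41.1% to 52.6%), against 593 of the 2321 other genes with 3 to 9 Vector peaks (25.5%, 23.8% to 27.4%). In the FTO list the shares at equal numbers of FTO peaks were 58.3% against 36.6% at 3 peaks, 58.3% against 30.6% at 4 peaks and 51.4% against 28.8% at 5 peaks. At 3 Vector peaks the Vector share was 56.1% against 36.2%, at 4 peaks 45.8% against 24.5% and at 5 peaks 45.7% against 20.7%, so the difference was also seen at equal numbers of peaks. At 9 peaks it was turned in both lists, with 0% of the 6 genes against 8.06% for Vector and 16.7% against 26.1% for FTO. The intervals cover counting error over genes, which are not replicates.

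The spacing of the numbers was equal in both lists for 137 of the 284 genes (48.2%). The Vector list had more unlisted numbers within the gene for 94 genes (33.1%) and the FTO list for 47 (16.5%), beside 45.8% and 22.1% of the 384 other genes with as many peaks in both lists, so an excess of Vector numbers was seen in both sets of genes. The widest were Rps6kc1, with 18 Vector and 10 FTO numbers unlisted, and Itprip, which encodes an inositol trisphosphate receptor-interacting protein, with 16 and 27. Palm, encoding the membrane protein paralemmin, enclosed 14 and 12. In contrast, Mphosph10, Nucb2, Nudt9 and Vangl1 had 7 or 8 peaks each and no unlisted number in either list. Equal sets of listed peaks therefore did not always mean equal numbering within the gene.

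Peak lengths of the identical sets were similar to those of the other genes. The median Vector peak was 192 bp, with the middle of the distribution from 130 to 431 bp, against 179 bp and 122 to 384 bp in the other genes with 3 to 9 peaks. At equal numbers of peaks the order of the medians varied, with 230 bp against 219 bp at 3 peaks, 202 bp against 184 bp at 4 peaks and 142 bp against 162 bp at 8 peaks. Peaks under 100 bp made up 12.7% of the Vector peaks of the identical sets and 14.4% of the others. A peak of 1000 bp or more was present in 110 of the 284 genes (38.7%) and in 920 of the 2321 others (39.6%). Lengths that are multiples of 3 had a share of 35.2% (95% Wilson interval 32.5% to 38.0%) against 37.5% (36.6% to 38.4%). More than 1 transcript was annotated in 20.1% and 21.4% of the genes.

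The place of the longest peak was also compared. It was the first or the last of the gene by number in 221 of the 284 genes (77.8%, 95% Wilson interval 72.6% to 82.3%) and in 1734 of the 2321 others (74.7%, 72.9% to 76.4%). At 3 peaks, where an end is common by the number of places alone, the shares were 83.3% and 83.2%. They were 73.6% and 77.0% at 4 peaks and 71.4% and 72.2% at 5 peaks. With 8 peaks it was so in 6 of 8 genes, against 51.4% of 105. The direction thus varied with the number of peaks, and the last comparison rests on few genes. Which end corresponds to the stop codon was not determined, as the strand was not used.

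Genes with the largest identical sets came from different functions. Amotl1 (NCBI gene ID 315430), an angiomotin-like scaffold that binds YAP, had 9 peaks of 276, 227, 191, 150, 146, 90, 145, 289 and 500 bp in both lists. Foxp1 (297480), a forkhead transcription factor needed for heart development, had peaks of 344, 167, 70, 202, 88, 205, 160, 138 and 198 bp. Smc1a (63996), a subunit of the cohesin ring, had 9 peaks, the shortest 111 bp and the longest 259 bp. All 9 lengths of each of these genes were thus found again after FTO overexpression. The remaining genes with 9 peaks were Ccdc186, a coiled-coil protein, Smap1, a GTPase-activating protein of endocytosis, and Tacc1, a coiled-coil protein of centrosomes and microtubules. Their longest peaks measured 704, 308 and 1099 bp.

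The 8 genes with 8 peaks included Mphosph10 and Nop14, which take part in assembly of the small ribosomal subunit. Mphosph10 had peaks of 228, 108, 111, 138, 68, 142, 166 and 685 bp in both lists. Nop14 had peaks of 392, 142, 135, 132, 304, 131, 160 and 156 bp. In Nucb2, the precursor of nesfatin, the peaks ran from 90 to 186 bp, and in Nudt9, a mitochondrial ADP-ribose pyrophosphatase, from 85 to 425 bp. Sh3pxd2a, a scaffold of podosomes, stood out by a peak of 2149 bp beside 7 peaks between 45 and 335 bp. Phip, a bromodomain protein, had a longest peak of 641 bp, and Ccdc6, a coiled-coil protein, one of 282 bp. The longest peak thus varied widely within this group, from 186 bp in Nucb2 to 2149 bp in Sh3pxd2a.

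The 7 genes with 7 peaks were Abl1, a tyrosine kinase, Aff4, a scaffold of transcription elongation, Chd8, a chromatin remodeller, Rara, a retinoic acid receptor, Vangl1, a planar cell polarity protein, Fez2 and Lrrfip1. Their longest peaks measured 1697 bp in Abl1, 918 bp in Aff4, 1058 bp in Chd8, 1504 bp in Rara, 608 bp in Vangl1, 860 bp in Fez2 and 2743 bp in Lrrfip1. A peak of at least 1000 bp was present in 57.1% of these 7 genes, against 47.0% of the 198 other genes with 7 Vector peaks. At 8 peaks it was present in 2 of 8 genes against 54.3% of the others, and at 9 peaks in 1 of 6 against 40.3%, so the direction changed between these small groups.

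Long peaks also had equal lengths in both lists, while their bounds were not compared. Stard9, which encodes a kinesin with a START domain, had the longest single peak at 9836 bp, beside 4 peaks of 144, 70, 138 and 475 bp. Ankrd11, a regulator of chromatin, had a peak of 6506 bp, and Akap12, an anchor of protein kinase A, one of 4807 bp. The peak of 4212 bp in Cttnbp2nl and that of 3901 bp in Wdr81, an endosomal protein, followed. By summed length Stard9 led with 10663 bp, before Ankrd11 with 7821 bp, Akap12 with 6443 bp, Dchs1 with 6205 bp and Itprip with 6053 bp. At the other end, Clu, the secreted chaperone clusterin, had 3 peaks with a sum of 315 bp. The shortest peak among all 284 genes was one of 12 bp in Rdx, which encodes the membrane-cytoskeleton linker radixin. The summed lengths thus spanned 315 to 10663 bp, with a median of 1480 bp against 1506 bp in the other genes with 3 to 9 Vector peaks.

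Genes of Hippo signalling were compared next. In this pathway the kinases STK3 and STK4 with the adaptor SAV1 activate LATS1 and LATS2, which restrain the coactivators YAP and TAZ and thereby the TEAD transcription factors. Of 30 genes on the list, 18 had 3 to 9 Vector peaks and 6 of these had identical sets (33.3%), beside 10.9% of all genes with 3 to 9 Vector peaks. The median difference, FTO peaks minus Vector peaks, was -0.5 for the list and -1 for all these genes. No call is drawn from the share, since the same comparison of lengths chose the genes.

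Among the kinases, Stk3 had peaks of 176, 193 and 126 bp in both lists, and Lats2 had peaks of 2150, 1298, 133 and 504 bp. Stk4 had 8 Vector peaks and 6 FTO peaks, with its Vector peaks of 129 and 3871 bp missing. Lats1 had peaks of 228, 1514 and 583 bp in the Vector list and of 1514 and 583 bp in the FTO list. Within each pair of related kinases, 1 gene kept its set and the other had fewer FTO peaks. The adaptor Sav1 had peaks of 1221, 144, 271, 447 and 112 bp in both lists. Dchs1, an atypical cadherin upstream of the pathway, had peaks of 3244, 1026, 1893 and 42 bp in both, while its partner Fat4 went from 8 to 4 peaks and Fat1 from 9 to 7.

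Further down the pathway, Vgll3, a cofactor of TEAD factors, had peaks of 162, 286 and 528 bp in both lists. Yap1 had 6 Vector peaks and 5 FTO peaks, the Vector peak of 113 bp being missing, and Wwtr1, which encodes TAZ, had its 3 Vector lengths and an added FTO peak of 122 bp. Tead1 had 3 and 2 peaks. Angiomotin relatives differed in the same way, with an identical set in Amotl1, an added FTO peak of 112 bp in Amotl2, and 3 and 2 peaks in Amot. Fewer FTO peaks were listed for 9 of the 18 genes and more for 3, beside 1587 and 350 of all 2605. With equal spacing of the peak numbers also required, 2 of the 6 identical sets were left.

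Enzymes that modify histones or remodel chromatin had 4 identical sets among 35 genes with 3 to 9 Vector peaks (11.4%), close to the 10.9% of all such genes. Chd8 had peaks of 1001, 717, 183, 115, 386, 372 and 1058 bp, and the related remodeller Chd4 had peaks of 179, 242, 206, 238, 181 and 610 bp. Kmt5a, the methyltransferase for a single methyl group on histone H4, had 5 peaks between 42 and 220 bp. Kmt2b, a methyltransferase for histone H3, had peaks of 1294, 2015 and 333 bp. Fewer FTO peaks were found for 18 of these enzymes and more for 8, again beside 1587 and 350 of 2605.

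None of the 7 m6A writers, erasers and readers with 3 to 9 Vector peaks had an identical set, beside 10.9% of all such genes, and no difference is read from this short list. With peaks under 100 bp left out there was 1 among 6. The transfected gene Fto kept its 3 Vector lengths of 120, 144 and 144 bp and had 9 FTO peaks. The plasmid carried rat FTO cDNA, and whether its RNA entered these peaks was not examined. The writer subunit Mettl14 had 6 peaks in both lists but only 3 lengths in common, and its first peak measured 1280 bp for Vector and 1428 bp for FTO. Ythdc1, a nuclear reader, kept 8 of 9 lengths and lacked its Vector peak of 90 bp. Below the range, the sets were identical for 6 of 11 genes of the list with 1 or 2 Vector peaks, beside 34.1% of all genes with 1 peak and 22.3% with 2. These included the catalytic writer Mettl3 with peaks of 405 and 166 bp, the demethylase Alkbh5 with 972 and 81 bp, and the reader Ythdf3 with 267 and 1599 bp. The median difference was 1 for the 7 genes with 3 to 9 Vector peaks, Fto among them, beside -1 for all such genes. It was 0 for the 20 genes of the list with a peak.

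Genes of the extracellular matrix were compared with the 10.9% of identical sets among all genes with 3 to 9 Vector peaks. None of 7 collagen chains and none of 16 matrix glycoproteins and proteoglycans with 3 to 9 Vector peaks had one. Of 10 genes for collagen processing and crosslinking, only Loxl1, an oxidase that crosslinks elastin and collagen, had an identical set, with peaks of 775, 116, 157, 109 and 1402 bp, and with equal spacing of the peak numbers required it had none. These lists are short, and no difference from the share of all genes is read from them. Eprs1, which encodes glutamyl-prolyl-tRNA synthetase, kept its Vector length of 263 bp and had no FTO peak of 193 or 161 bp. The collagen processing list had fewer FTO peaks for 7 of its 10 genes with 3 to 9 Vector peaks, with a median difference of -2. Of all 2605 such genes, 1587 had fewer, with a median of -1. Over all 23 collagen processing genes with a peak, 11 had fewer FTO peaks and 7 had more. Their median difference was 0, as it was for all 8534 genes with a peak. Among the 7 collagen chains, 4 had more FTO peaks and 3 had fewer, with 42 Vector peaks and 28 FTO peaks in all. Over all 23 collagen chains with a peak, 13 had fewer FTO peaks and 8 had more, beside 3555 and 1818 of all 8534 genes with a peak.

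Signalling and adhesion lists other than Hippo gave between 0 and 2 identical sets, beside 10.9% of all genes. For the list of TGF-β and BMP signalling there were 2 among 12 genes (16.7%), and 1 when equal spacing of the peak numbers was required. Eng, the coreceptor endoglin, had peaks of 354, 152, 162, 172 and 252 bp, and Ski, a repressor of SMAD transcription factors, had peaks of 388, 293 and 971 bp. In comparison, Tgfb1 went from 4 to 2 peaks and Smad3 from 4 to 5. Acvrl1, a receptor of this pathway with peaks of 276, 131 and 1982 bp, and Rgmb, a BMP coreceptor with 657, 509 and 145 bp, also had identical sets but were not on the list. Dkk3, a secreted protein of the Dickkopf family, was identical at 84, 138 and 236 bp among 9 Wnt genes. The tyrosine kinase Src, with peaks of 258, 100 and 104 bp, was the 1 identical set among 20 integrin and focal adhesion genes, and with peaks under 100 bp left out this list had 3 among 18. No identical set was found among 13 receptor tyrosine kinases or 8 Notch genes, although 3 Notch genes had as many peaks in both lists. With so few genes, no difference from 10.9% is read from a count of 0.

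Housekeeping and cell cycle lists were also set beside the 10.9% of all genes. Among 11 aminoacyl-tRNA synthetases and their cofactors, Sars1, the seryl-tRNA synthetase, kept peaks of 159, 71 and 221 bp and Tars1, the threonyl-tRNA synthetase, kept peaks of 115, 81 and 168 bp. Neither was left when equal spacing was required. With peaks under 100 bp left out, both fell below 3 peaks and so out of the range, their other lengths being equal. Of 9 nuclear pore and transport genes, the importin Kpna2 kept 138, 80 and 103 bp and the exportin Xpo6 kept 454, 91 and 444 bp. Without the peaks under 100 bp these 2 genes also fell out of the range, with their other lengths equal. Identical sets were not found in 9 DNA replication genes, 20 mitosis and cytokinesis genes, 14 DNA damage repair genes or 2 immediate early transcription factors with 3 to 9 Vector peaks. All 9 DNA replication genes of this range had fewer FTO peaks, with a median difference of -3, and so did 18 of the 20 mitosis genes, with a median of -2. Of all 2605 genes, 1587 had fewer FTO peaks, with a median of -1. Over all 25 DNA replication genes with a peak, 18 had fewer FTO peaks and 2 had more, with a median of -1. Of all 36 mitosis genes with a peak, 32 had fewer and 1 had more, with a median of -2. All 8534 genes with a peak had a median of 0. The absence of identical sets from these short lists is therefore given as a count only.

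Gene families defined by their symbols were also counted. Zinc finger proteins of the Zfp and Zbtb families, many of which bind DNA, had 9 identical sets among 54 genes (16.7%), beside 10.9% of all genes. Zfp106 had 6 peaks of 58, 616, 2176, 163, 62 and 54 bp, Zfp362 had 5 between 117 and 328 bp, and Zfp516 had peaks of 1924, 1452, 105 and 386 bp. Zfp91 had a longest peak of 377 bp beside a shortest of 29 bp. Fewer FTO peaks were listed for 31 of the 54 genes and more for 5, beside 1587 and 350 of all 2605. Solute carriers had 1 identical set among 27 genes, in Slc45a4 with peaks of 565, 1067 and 632 bp. None was found among 15 ubiquitin-specific proteases or 15 kinesins named Kif.

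The genes just outside the rule show how narrow it was. All but 1 Vector length were found again in 750 of the genes with 3 to 9 Vector peaks. In 361 of them the FTO list only lacked 1 peak, and in 252 it held as many peaks with 1 other length. Along the peak number, the differing peak had the same place among the kept lengths in 172 of those 252 genes (68.3%, 95% Wilson interval 62.3% to 73.7%). In the other 80 genes it stood elsewhere, so that a Vector peak was missing and a different FTO peak was present. Where the place was the same, it was longer in the FTO list for 100 genes and shorter for 72, with a median difference in size of 52.0 bp, and the lengths were within 10 bp in 28. For Cir1, a corepressor of CBF1, the peaks in the same place measured 1044 and 1045 bp. Among genes with 9 Vector peaks, Cwf19l2 lacked only a peak of 61 bp and Eif5b, a translation initiation factor, only one of 111 bp in the FTO list. Drosha, the nuclease of microRNA processing, lacked its Vector peak of 104 bp and had an FTO peak of 111 bp in another place. Baz1a, a chromatin remodelling subunit, lacked a Vector peak of 96 bp and had an FTO peak of 135 bp elsewhere, and Akna, a centrosomal protein, kept 8 of 9 lengths among 13 FTO peaks. Each of these genes with 9 Vector peaks was thus short of a single Vector length, and Drosha, Baz1a and Akna also had FTO lengths of their own.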

How the data were processed

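m6A-seq was performed on CFs with 1 m6A-IP and 1 input library per group. The authors deposited 1 peak list per group with the peak name, length in bp, Ensembl transcript and NCBI gene ID, not normalized. The submitters' processing notes name cutadapt 1.9.3, HISAT2 2.0.4 and the build rn6. The names carry the prefix MACS, and the caller's version, settings and threshold are not given in the sources used here. The lists held 21249 Vector peaks and 17796 FTO peaks, of which 248 and 213 had no gene ID and were left out. A shorter list leaves fewer peaks to find again, and this was not corrected. The paper reports slightly more peaks for each group than the lists held.

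Peaks were ordered by the number in their name. Symbols came from the RefSeq table of GRCr8, which matched 279 of the 284 genes, and only names, chromosomes and gene order were used from it. No peak sequence is shown, as no positions were used. The members and lists were chosen with earlier results of these data known. Counts and shares are descriptions with 95% Wilson intervals, without p-values. The rule was tested on simulated lists. Named are the genes with at least 7 peaks, up to 4 on each of 17 gene lists and 4 families, the longest peaks and sums, 5 near misses, genes with over 9 peaks, Fto and Eprs1. Markers, genes of the lists given for comparison, and Clu, Rdx, Palm, Cir1, Acvrl1, Rgmb and the genes of the closing paragraphs were named after their values were seen. Alternatives were grouping by transcript, equal transcripts, lengths within 10%, minimum lengths of 100 and 200 bp, no upper limit and a range set on FTO peaks. Equal spacing of peak numbers and genes with symbols alone were added after seeing the data. So were counts of the 17 gene lists under each of these alternatives but grouping by transcript. The 4 families and the lists of the closing paragraphs were not counted under alternatives. Calculations used numpy 2.4.6, scipy 1.17.1 and pandas 2.3.3 under Python 3.11.15.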

Additional observations from a re-analysis of the deposited data

How the results depend on the processing

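Of 22 values under the alternatives, 15 stayed within 1.5 times the number of genes, or for shares and medians within the 95% interval, and 7 did not. Allowing lengths within 10% raised the share of identical sets from 10.9% to 14.7%. When only peaks from 100 bp upwards were counted, the share was 13.5%, and the median peak length was 204 bp in place of 192 bp. From 200 bp upwards, 24.8% of 945 genes were identical. With the range set on 3 to 9 FTO peaks the same 284 genes were 13.2% of 2149. Requiring equal spacing of the peak numbers as well, chosen after the data were seen, left 137 genes, or 5.26%. Of 136 counts for the gene lists, all added after the data were seen, 26 moved by over 1.5 times. Hippo signalling had between 2 and 7 identical sets, histone and chromatin enzymes between 3 and 6, the synthetases and the nuclear transport genes between 0 and 2, integrin and focal adhesion genes between 1 and 3, TGF-β and BMP and Wnt signalling between 1 and 2, and collagen processing between 0 and 1. Lists with 0 reached 1 under some alternative for collagen chains, matrix glycoproteins, mitosis, DNA damage repair, Notch signalling, receptor tyrosine kinases and m6A genes. Leaving out short peaks also moved genes out of the range of 3 to 9 peaks, as with Sars1, Tars1, Kpna2 and Xpo6. With a single library pair in each group, pairing was not possible and no replicate could be left out. As the depth is unknown, numbers of peaks cannot be compared between the lists without this reserve.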

Other observations

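Further gene groups were read from the list of 284 genes after it had been seen, so their counts are descriptions of a choice. Nuclear receptors, ligand-controlled transcription factors, had 4 identical sets among 7 genes with 3 to 9 Vector peaks, beside 10.9% of all such genes. Rara had peaks of 549, 410, 149, 142, 177, 205 and 1504 bp in both lists, and its partner Rxra had peaks of 266, 180, 170, 130, 92 and 702 bp. Nr2f2, a regulator of vessel and atrial identity, had 707, 528 and 626 bp, and Nr1h4, the bile acid receptor, had 134, 141 and 369 bp. The other receptors of this range were Rora with 4 peaks in each list, Rarg with 4 and 3, and Ppard with 4 and 5.

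Genes for ribosome assembly, a list also written after the data were seen, had 9 identical sets among 23 genes, beside the same 10.9%. Beside Mphosph10 and Nop14, these were Rrp1 with 6 peaks, Nolc1 and Surf6 with 4, and Aatf, Bysl, Nsa2 and Pes1 with 3. Pes1, needed for the large subunit, had peaks of 262, 185 and 390 bp, and Bysl, needed for the small subunit, had 464, 163 and 543 bp. As many peaks with other lengths were found for 4 further genes, including Nop58, whose last peak measured 211 bp in the Vector list and 208 bp in the FTO list. Fewer FTO peaks were listed for 6 of the 23 genes and more for 4, beside 1587 and 350 of all 2605.

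Among peaks without a gene ID, 16 transcripts had 3 to 9 Vector peaks and 3 of them had identical sets (18.8%). The share was 11.7% when peaks were grouped by transcript, and no difference is read from so few transcripts. Gcnt2 had a tie, with peaks of 1399, 919 and 919 bp in both lists, and tied lengths occurred in 3 of the 284 genes. Metap2-ps1, whose symbol marks a pseudogene, had 3 identical peaks of 162, 103 and 260 bp, and whether reads of Metap2 entered it was not examined.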
